A study of Mus musculus with 20 samples.

Results

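Ribosome-bound RNA from the cortex of 3-month-old C57BL/6 mice was compared between 3 animals with a heterozygous Foxp2 deletion in the cortex (het729, het786 and hetBT13) and 5 wild types (wt734, wt736, wt785, wtBT13 and wtBT14). These 8 libraries are the pull-downs (IP) among 20 libraries of 10 animals, and they were picked by the IP ending of their sample names. Each library comes from 1 animal. Per the labels' protocols, ribosomes carrying a GFP tag were captured from cortical lysate with anti-GFP serum on magnetic beads, a method known as bacTRAP, and the same animal's lysate was sampled just before capture (Input). All 8 animals were put through the GFP pull-down. Which cells carry the GFP tag, and which Cre line or promoter removed Foxp2, are not given in the sources used here.

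Foxp2 is a forkhead transcription factor. It binds DNA as a dimer, alone or with its relatives Foxp1 and Foxp4, and is best known as a repressor. In the mature cortex it is a marker of deep-layer projection neurons, mainly the corticothalamic neurons of layer 6, and mutations of the human gene cause a speech and language disorder. RNA attached to ribosomes is RNA in the course of translation, so a bacTRAP pull-down reads what the tagged cells translate, plus whatever untagged RNA the beads carry over.

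No gene differed between heterozygous and wild-type ribosome-bound RNA by the test used across all genes. Foxp2 itself was at 66.6% of the wild-type level, with overlapping groups. In lysate it was at 59.3%, and there the groups did not overlap. The clearest single-gene differences were lower values in heterozygotes: the presynaptic adaptor gene Apba2 at 67.8% of wild type, the astrocyte membrane gene Mlc1 at 43.7% and the secreted protease gene Htra1 at 53.4%. Genes of GABA receptors, astrocytes, oligodendrocyte precursors and microglia were mostly lower. On the layer 6 corticothalamic list 8 of 11 genes were higher, but not Foxp2 or the marker gene Ntsr1. For the layer 6, astrocyte and microglial lists the per-animal medians overlapped between genotypes.

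The 8 IP libraries held 4061562 to 5754169 counts and 18886 to 19855 detected genes. Levels are given in CPM, the usual counts relative to library size, here with library sizes corrected by the TMM method of edgeR, and a log2 change is heterozygous over wild type. The pull-down was checked against markers of cortical cells. Markers of layer 6 corticothalamic neurons summed to a median of 1.625 times their level in the same animals' lysate, while interneuron markers were at 0.485, myelinating oligodendrocyte markers at 0.296, astrocyte end-foot markers at 0.570 and microglial markers at 0.523 times. Other neuronal markers were also below their lysate level, at 0.664 for upper layers, 0.707 for layer 5 and 0.857 for glutamatergic identity, and endothelial markers at 0.756 lay above upper layers. Glial and vascular RNA was thus still present in IP. The library of het729 stood apart. It held 470.7 CPM of summed blood cell genes against 18.57 to 59.65 CPM in the other 7, and 0.398% of its counts came from mitochondrial DNA against 0.0616% to 0.127%. Its ratio of IP to lysate for blood cell genes was 0.174, inside the range of 0.0451 to 0.184 over the 8 animals. In lysate these genes reached 2714 CPM in heterozygotes and 547.7 CPM in wild types. The mitochondrial share in the lysate of het729 was 1.42%, against 0.928% to 1.86% in the other animals. Results that rest on the IP library of het729 are given with and without it. In a bulk sample, fewer cells of a type and less RNA per cell cannot be told apart. The p-values measure the spread between animals, and Smart-seq2 libraries mark neither strand nor single molecules, so overlapping genes cannot be told apart and counting error is a lower limit.

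Across the genome the genotype difference was small. With the quasi-likelihood test of edgeR, 0 of 14755 genes (0%) passed an adjusted p of 0.05, and 604 (4.09%) had an unadjusted p below 0.05. Of those, 454 (3.08% of the genes tested) were lower in heterozygotes and 150 (1.02%) higher, although over all genes tested the split was even, with 49.3% below 0. The median change was 1.46-fold among the 454 and 1.38-fold among the 150. The share that was lower was 75.2%, and it ran from 64.3% with genes of low counts kept to 77.5% without wt785. In 525 genes (3.56%) the 3 heterozygotes lay entirely outside the range of the 5 wild types, 271 below it (1.84%) and 254 above it (1.72%), so this count was close to even. Under labels shuffled over the 56 possible assignments of the animals, each direction would have a share of 0.0179, near the shares seen. With CPM by the library total in place of TMM scaling the split was 308 below and 177 above. DESeq2 called 3 of 14742 genes (0.0204%), and limma-voom called 0.

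Foxp2 (ENSMUSG00000029563, mm10 chromosome 6 from 14901349 to 15441977, plus strand) was measured over the whole gene, so transcripts that lack a deleted part would still be counted. Heterozygous IP held 52.9 CPM (het729), 56.8 (het786) and 32.4 (hetBT13), and wild-type IP 61.6 (wt734), 105 (wt736), 69.3 (wt785), 46.3 (wtBT13) and 72.8 (wtBT14). The heterozygotes were in the lower part of the range, but wtBT13 lay below 2 of them, and wt736 stood well above all others. The mean was 47.4 ± 13.1 CPM (SD, n = 3) against 71.1 ± 21.7 (n = 5), and an exact two-sided permutation test over the 56 possible assignments of the animals gave p = 0.179, where 0.0179 is the smallest it can give. By edgeR the IP difference had an unadjusted p of 0.0251 and an adjusted p of 0.981. In the lysate the same animals held 28.4 ± 3.57 CPM against 47.9 ± 11.3, or 59.3% of wild type. There every heterozygote (24.5, 29.2 and 31.5 CPM) lay below every wild type (38.5 to 65.5 CPM). The lysate difference had an unadjusted edgeR p of 0.000264 and an adjusted p of 0.501.

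The other Foxp genes, which can pair with Foxp2, were close to the wild-type level. Foxp1 was at 165 ± 15.4 CPM (SD, n = 3) against 153 ± 16.3 (n = 5), and Foxp4 at 36.5 ± 5.51 against 33.3 ± 4.92. Of 15 tested genes for Foxp factors and the corepressors they bind, 9 were lower and 6 higher, with a median log2 change of -0.02 beside 0.003 over all genes. The 11 tested genes with names beginning Fox but outside the Foxp family had a median of 0.10, with 8 of 11 higher. Groups overlapped in all but Foxn3 and Foxj3, which were higher in each heterozygote, as were 1.72% of all genes. Of the 11, Foxred1 encodes an oxidoreductase and not a forkhead factor. Foxn3, a forkhead repressor, was at 31.5, 30.0 and 32.3 CPM in het729, het786 and hetBT13, above the wild-type range of 17.8 to 29.6. This list's median was -0.04 without hetBT13, 0.04 without wt785 and 0.23 without het729.

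Of 11 tested markers of layer 6 corticothalamic neurons, the cells that express Foxp2 most, 8 were higher in heterozygotes, with a median log2 change of 0.15. By animal, the list median was 0.378, 0.173 and -0.054 log2 units from the wild-type mean in het729, het786 and hetBT13. In the wild types it ran from -0.251 to 0.301, so the groups overlapped. With 1 library left out the median log2 change ran from 0.08 (without het729) to 0.26 (without hetBT13). It was under 0.10 also without het786 (0.09), wtBT13 (0.08) or wtBT14 (0.09). Tle4, which encodes a Groucho-type corepressor, was at 138, 132 and 109.9 CPM in het729, het786 and hetBT13 and at 87.9 to 124 in the wild types, so hetBT13 lay inside the wild-type range. Ntsr1, the neurotensin receptor gene used as the standard marker of these cells, was 8.53 times higher in wild-type IP than in wild-type lysate. It held 34.9, 42.6 and 37.8 CPM in the heterozygotes and 35.2 to 47.1 in the wild types, at 97.4% of the wild-type mean (exact permutation p = 0.821). Tbr1 was at 79.7 against 69.1 CPM, Fezf2 at 83.5 against 65.6 and Bcl11b at 174 against 157, each with overlapping groups. These genes were named after their values were seen. The list is not particular to layer 6, as Tbr1 stands also on the glutamatergic identity list and Crym on the layer 5 list. Layer 5 projection neuron markers gave no clear direction. Their median per animal was -0.096, -0.153 and -0.164 log2 units from the wild-type mean in the 3 heterozygotes. It was -0.08 to 0.121 in the wild types. But 6 of 11 genes were lower, near the 49.3% of all genes. In 0 of 11 did the groups stay apart, beside 3.56% of all genes. Their summed level was 918.2 to 1360 CPM in heterozygotes and 745.3 to 1252 CPM in wild types, highest in het729.

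Apba2 (ENSMUSG00000030519, chromosome 7, 64501706 to 64753878, plus strand) encodes an adaptor of the presynaptic terminal that binds the vesicle fusion protein Munc18-1 and the amyloid precursor protein. Taking the animals in the same order, it was at 111, 98.7 and 108 CPM in the heterozygotes and at 170.4, 128, 163, 176 and 143 CPM in the wild types. Every heterozygote lay below every wild type, and the heterozygotes were closer to each other than the wild types were. The log2 change was -0.56 (SE 0.11, edgeR adjusted p = 0.981, DESeq2 adjusted p = 0.047), with an exact permutation p of 0.0357, unadjusted. The ratio to wild type was 66.3% without het729, 68.0% among the animals with BT in their names and 68.0% among those with numbers only. Of 20 tested genes for Apba adaptors and the proteins they bind, 10 were lower and 10 higher, with a median log2 change of 0.001.

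Mlc1 (ENSMUSG00000035805, chromosome 15, 88955884 to 88979007, minus strand) encodes a membrane protein of astrocyte end-feet that is mutated in a childhood leukoencephalopathy. In that order again, its level was 23.3, 15.4 and 31.6 CPM in the heterozygotes and 64.7, 38.2, 55.2, 69.1 and 40.8 CPM in the wild types. The groups did not overlap, with hetBT13 closest to the wild-type range. The log2 change was -1.19 (SE 0.24, edgeR adjusted p = 0.981, DESeq2 adjusted p = 0.0188).

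Htra1 (ENSMUSG00000006205, chromosome 7, 130936111 to 130985660, plus strand) encodes a secreted serine protease made by astrocytes, and mutations of the human gene cause a small-vessel disease of the brain. The heterozygotes held 34.7, 24.8 and 40.0 CPM and the wild types 69.7, 43.6, 61.6, 75.9 and 60.0 CPM, in the same order. All 3 heterozygotes were below wt736, the lowest wild type. The log2 change was -0.90 (SE 0.19, edgeR adjusted p = 0.981, DESeq2 adjusted p = 0.0425).

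**Figure D1:**
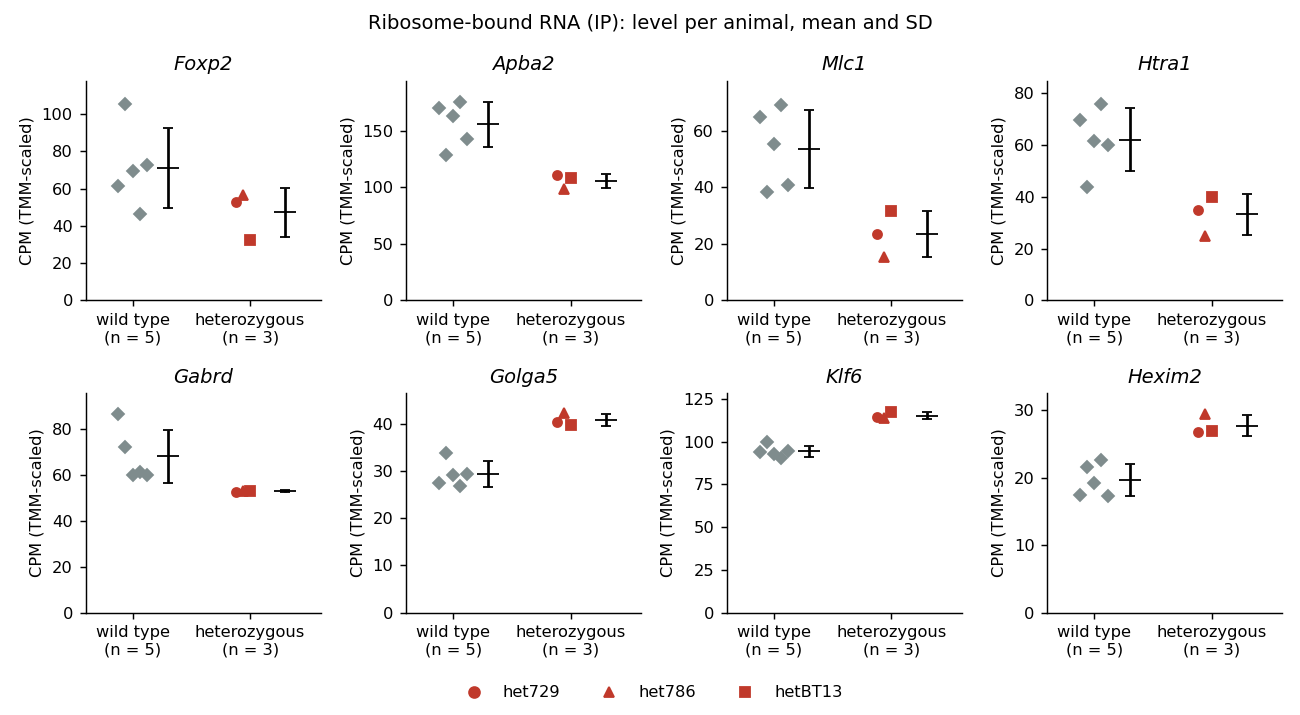
Level of 8 genes in each IP library, in TMM-scaled CPM on the vertical axis from 0, for 5 wild types (grey) and 3 heterozygotes (red, 1 symbol per animal). Horizontal bars are the group means and vertical bars the SD; Foxp2 groups overlap, Apba2, Mlc1, Htra1 and Gabrd are lower in each heterozygote, and Golga5, Klf6 and Hexim2 are higher in each.

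Promoters of the genes with the smallest p were read for the letters that forkhead factors bind, since Foxp2 acts at DNA. The core searched was TGTTT, or AAACA on the other strand. The longer motifs were TGTTTAC, which contains the core, and TATTTGT, each on both strands. In the 250 bases before the RefSeq start, 46.4% of 32851 windows held the core, 3.17% held TGTTTAC and 3.29% held TATTTGT. Of the 24 genes named by p below, 17 had a window: 2 of 8 lower genes (Fstl5 and Adgrl2) and 2 of 9 higher genes (Gtf2e1 and Prdm16) held the core, 1 (Gtf2e1) held TGTTTAC and 0 held TATTTGT. A match is a run of letters, not a binding site, and its absence covers only this window. The windows of the 3 genes called by DESeq2, and of the 2 genes with a repeated core or the longer motif, are printed from RefSeq on GRCm38.p6, 5′ to 3′ on the gene's strand, with matches in capitals. They are chr7:64501456-64501705 (Apba2, plus), chr15:88978554-88978803 (Mlc1, minus), chr7:130935953-130936202 (Htra1, plus), chr3:148954636-148954885 (Adgrl2, minus) and chr16:37539790-37540039 (Gtf2e1, minus).
Apba2: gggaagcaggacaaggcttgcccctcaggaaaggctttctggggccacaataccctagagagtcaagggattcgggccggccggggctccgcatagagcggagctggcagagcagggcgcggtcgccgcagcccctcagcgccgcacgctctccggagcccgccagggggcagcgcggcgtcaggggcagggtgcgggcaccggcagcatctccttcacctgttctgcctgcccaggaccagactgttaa
Mlc1: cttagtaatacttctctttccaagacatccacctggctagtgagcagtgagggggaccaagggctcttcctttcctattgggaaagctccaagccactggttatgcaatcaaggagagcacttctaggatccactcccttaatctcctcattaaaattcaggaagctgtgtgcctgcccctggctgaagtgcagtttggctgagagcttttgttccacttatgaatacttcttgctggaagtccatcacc
Htra1: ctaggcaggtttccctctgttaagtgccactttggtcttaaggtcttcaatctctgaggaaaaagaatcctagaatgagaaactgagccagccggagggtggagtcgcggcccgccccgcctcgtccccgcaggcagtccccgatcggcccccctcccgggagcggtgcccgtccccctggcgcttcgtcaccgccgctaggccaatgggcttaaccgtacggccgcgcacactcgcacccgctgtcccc
Adgrl2: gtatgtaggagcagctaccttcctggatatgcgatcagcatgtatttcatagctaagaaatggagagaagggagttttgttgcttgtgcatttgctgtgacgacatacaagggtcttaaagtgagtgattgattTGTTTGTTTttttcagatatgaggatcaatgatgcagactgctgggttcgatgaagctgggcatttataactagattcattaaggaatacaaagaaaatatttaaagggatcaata
Gtf2e1: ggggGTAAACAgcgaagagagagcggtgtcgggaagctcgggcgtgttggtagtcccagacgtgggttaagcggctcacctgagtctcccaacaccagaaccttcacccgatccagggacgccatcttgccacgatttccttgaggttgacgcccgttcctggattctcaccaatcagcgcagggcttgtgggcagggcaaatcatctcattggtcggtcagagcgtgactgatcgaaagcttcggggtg
The first 3 hold no capitals because neither the core nor the longer motifs occur in them. Adgrl2 holds the core in tandem, and Gtf2e1 holds the longer motif on the opposite strand near the far end of its window.

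The genes named next are the 12 of smallest p in each direction with a mean of at least 5 CPM and groups that do not overlap. They were chosen by this difference, so their values describe it and do not test it. Besides Apba2, Mlc1 and Htra1, the lower genes were Cyp7b1, Cers4, Fcrls, AI464131, Fstl5, Slc7a10, Adgrl2, Itgb4 and Zfp40, at 41.9% (Fstl5) to 66.4% (Adgrl2) of wild type.

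Cyp7b1, an oxysterol hydroxylase gene, was at 6.23, 8.63 and 7.94 CPM in het729, het786 and hetBT13 and at 11.5 to 17.0 in the wild types. Slc7a10, which encodes a transporter of serine, glycine and alanine, was at 6.95, 6.75 and 7.42 CPM against 8.63 to 19.5. Fcrls, a microglial receptor gene, was at 3.56, 4.13 and 5.69 CPM against 7.08 to 13.6. These 3 are at low levels, and the lowest wild type stood close to the heterozygotes for Slc7a10. Cers4, a ceramide synthase gene, was at 22.8, 21.2 and 25.7 CPM against 31.2 to 38.0. Itgb4, the laminin-binding integrin beta 4 gene, was at 3.56, 2.81 and 2.76 CPM against 5.40 to 7.49. Adgrl2, the gene for the synaptic adhesion receptor latrophilin 2, was at 40.8, 44.3 and 39.3 CPM against 53.7 to 76.4. In Adgrl2 the 3 heterozygotes and the 3 number-only wild types (53.7 to 54.6) formed tight sets, and the 2 BT wild types were higher at 76.4 and 73.0.

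The higher genes were Golga5, Klf6, Hexim2, Fam78b, Gtf2e1, Atox1, Zfand2b, Ccer2, Tshz3, Prdm16, Kcmf1 and Cxxc5, at 121% (Cxxc5) to 166% (Ccer2) of wild type. Golga5, which encodes the Golgi tether golgin-84, was at 40.4, 42.2 and 39.7 CPM in het729, het786 and hetBT13 and at 26.9 to 33.9 in the wild types. Over the whole list of golgins and Golgi tethers 11 of 23 were higher, with a median log2 change of -0.02. Klf6, a Krüppel-like transcription factor gene, was at 114, 114 and 117 CPM against 90.6 to 99.5, and every heterozygote lay above wt736, the highest wild type.

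Regulators of transcription elongation and initiation were among the higher genes. Hexim2, an inhibitor of the elongation kinase P-TEFb, was at 26.7, 29.4 and 26.9 CPM against 17.3 to 22.6. Gtf2e1, a subunit gene of the initiation factor TFIIE, was at 31.7, 37.0 and 35.0 CPM against 21.9 to 31.7, with het729 and wtBT14 nearly level. Tshz3, a zinc finger homeobox gene of cortical projection neurons, was at 38.3, 39.0 and 38.0 CPM against 28.1 to 32.9, and no wild type came near the heterozygotes. Prdm16, a chromatin regulator gene, was at 16.4, 11.8 and 11.4 CPM against 7.23 to 10.7, with het729 well above the other 2. Of 27 tested genes for general transcription and control of P-TEFb, 21 were higher, with a median log2 change of 0.065, which was 0.11 without het729 and 0.04 without het786. Among them Btaf1, which encodes a remover of the TATA-binding protein from DNA, was at 18.3, 8.44 and 17.6 CPM against 4.84 to 9.49, so het786 lay inside the wild-type range. Ccnt1, the cyclin of P-TEFb, was in the other direction at 58.0 against 66.3 CPM, with overlapping groups.

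**Figure D2:**
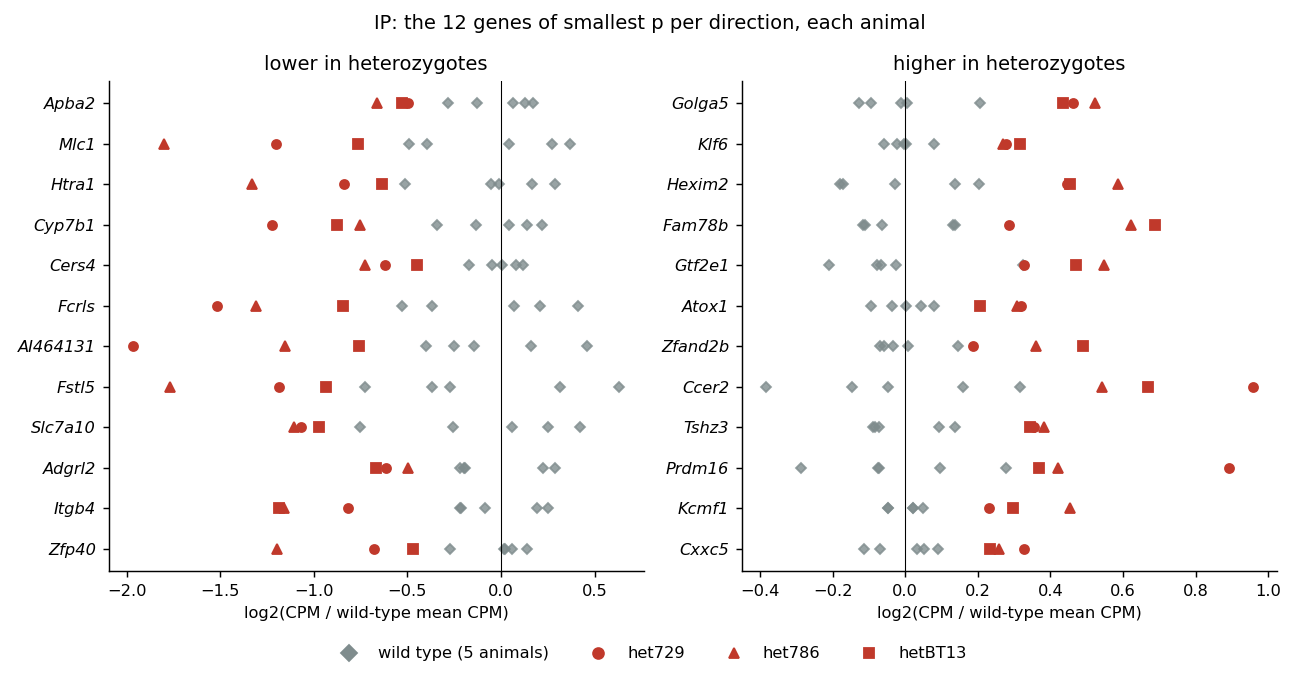
The 12 lower and 12 higher genes of smallest p in IP, chosen by this difference. Each point is 1 animal's log2 ratio of CPM to the wild-type mean (grey, 5 wild types; red symbols, 3 heterozygotes); the horizontal scales differ between the panels, and het786 is the lowest point for Mlc1, Htra1 and Fstl5.

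The log2 change kept its sign in all 17 alternative analyses for 76 of the 79 genes named by the rules used. Most of these genes were chosen by their difference in these same libraries, so a kept sign was likely from the start and is not support. The 3 that reversed in an alternative were Drd1, Ntsr1 and 4632404H12Rik.

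GABA receptor genes, which encode the channels and receptors of inhibitory transmission, were lower throughout. All 14 tested members were below the wild-type mean, with a median log2 change of -0.23 (0.853-fold), beside a median of 0.003 and 49.3% below 0 over all genes. The median deviation of these genes was -0.244 in het729, -0.203 in het786 and -0.228 in hetBT13, and -0.089 to 0.042 in the wild types. It was as large without het729 (-0.23), and ran from -0.25 to -0.18 over the alternatives. By gene, 5 of 14 had an unadjusted edgeR p below 0.05, where 3.08% of all genes were lower at that level, and 3 of 14 had groups that did not overlap, where 1.84% of all genes were.

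Gabrd, the delta subunit of receptors outside synapses, was at 52.5, 53.3 and 53.1 CPM in the heterozygotes and at 86.9, 72.4, 60.1, 61.5 and 60.0 CPM in the wild types, in the order used above. The heterozygotes were all but equal and below every wild type, and wt734 and wt736 stood above the other wild types. Gabra5, the alpha 5 subunit, was at 73.0, 71.7 and 59.0 CPM against 76.3 to 83.3, and Gabrb1, the beta 1 subunit, at 51.1, 58.0 and 60.0 against 61.6 to 69.7. Gabrb2, the beta 2 subunit, was at 46.8, 59.8 and 38.0 CPM against 44.5 to 72.5, with wtBT14 among the heterozygotes. Gabra2 had the widest scatter, from 29.0 in het729 to 65.9 in hetBT13 against 43.3 to 70.6 in the wild types. The metabotropic receptor genes Gabbr1 and Gabbr2 had log2 changes of -0.08 and -0.08, with overlapping groups.

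Other synaptic lists were read beside it. Genes of the inhibitory postsynapse and of GABA receptor trafficking, such as gephyrin and its partners, had 13 of 23 lower and a median log2 change of -0.04. AMPA and kainate receptor genes had 8 of 17 lower and a median of 0.01. NMDA and metabotropic glutamate receptor genes had 12 of 13 lower with a median of -0.08, which moved with the animals included. It was -0.22 without hetBT13, close to the GABA receptor value, -0.13 without het786, -0.15 without wt734, -0.16 without wt785 and -0.14 without wtBT14. In that list Grin3a, a non-classical NMDA receptor subunit, was at 13.2, 19.1 and 20.0 CPM in the heterozygotes against 18.8 to 36.1, with overlap. The differences between these lists were not tested.

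Adhesion and guidance genes were mostly lower. Of 38 cadherin, protocadherin and contactin genes, 29 were lower (median log2 -0.24), as were 22 of 27 semaphorin, plexin and neuropilin genes (median -0.22, or -0.11 without het729) and 24 of 29 neurexin, neuroligin and other synaptic adhesion genes (median -0.16, or -0.10 without wtBT13). By animal, the IP medians of each of these lists overlapped between genotypes, with wt736 (-0.166, -0.192 and -0.136) among the heterozygotes. In the lysate of the same animals the medians of these lists, in that order, were close to the IP values, at -0.233, -0.204 and -0.195. In IP Cntn2, the axonal contactin TAG-1, was at 20.8, 24.0 and 28.6 CPM against 29.2 to 43.9. Sema3e, a repulsive guidance ligand, was at 26.4, 22.3 and 23.5 CPM against 26.5 to 37.1, with het729 and wt734 nearly level. Tenm1, a teneurin that binds latrophilins, was at 27.1, 27.2 and 34.7 CPM against 38.8 to 46.6. Cntnap2, the contactin-associated protein gene known as a Foxp2 target from earlier work, was at 36.7, 36.0 and 37.8 CPM against 38.6 to 48.1, or 86.1% of wild type (exact permutation p = 0.0357, unadjusted). Its ratio was 92.7% among BT animals and 82.3% among number-only ones. Plxna4, a semaphorin receptor, was at 19.2, 16.5 and 25.2 CPM against 22.8 to 60.9, where wtBT14 held the 60.9. Over the whole of the list of genes linked to Foxp2 in earlier work, 13 of 18 were lower, with a median of -0.08. That median ran from -0.18 without het729 to -0.05 without wt734, and was also -0.18 without hetBT13, -0.12 without wt785 and -0.16 without wtBT14.

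Astrocyte genes were mostly lower in IP, and those of transporters and secreted proteins in lysate too. All 14 tested genes for astrocyte transporters and end-foot membrane proteins were lower in IP. Their median log2 change was -0.53 in IP and -0.49 in the lysate of the same animals. In IP 8 of 14 had an unadjusted edgeR p below 0.05, where 3.08% of all genes were lower at that level. The per-animal medians were -0.628, -0.649 and -0.226 in het729, het786 and hetBT13, and -0.45 in wt736 against -0.045 to 0.325 in the other wild types, so wt736 lay among the heterozygotes. The summed level of the list was 661.6 to 785.3 CPM in heterozygotes and 776.7 to 1095 CPM in wild types. Gpr37l1, a receptor of astrocytes, was at 38.1, 38.5 and 35.2 CPM against 41.5 to 81.4. Aqp4, the water channel of end-feet, was at 14.6 against 25.0 CPM, while the glutamate transporter gene Slc1a2 was at 265 against 276. All 14 secreted protein genes of astrocytes were lower as well, with a median of -0.34 in IP (-0.21 without het786) and -0.42 in lysate. Of 16 genes of astrocyte identity and metabolism 12 were lower, with a median of -0.25 in IP (-0.15 without het786) and -0.09 in lysate. In the last list Acsl3, an acyl-CoA synthetase gene, was at 88.5, 99.4 and 89.5 CPM against 109.8 to 127.

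Precursor, microglial, mural and endothelial lists were lower too, and het786 was the lowest animal in the first 3. Oligodendrocyte precursor genes had 8 of 8 lower (median log2 -0.51, or -0.34 without het786 and -0.81 without hetBT13), with -0.219, -0.895 and -0.296 in het729, het786 and hetBT13 and -0.168 to 0.364 in the wild types. Microglial genes had 14 of 14 lower (median -0.42, or -0.14 without het786), with overlapping groups, at -0.847 in het786. Mural cell genes had 6 of 7 lower (median -0.67) and endothelial genes 4 of 4 (median -0.43, or -0.21 without wtBT13). By animal, the mural median was 0.081, -0.875 and -0.672 in het729, het786 and hetBT13. In the wild types it ran from -0.402 to 0.286, so the groups overlapped, as they did for endothelial genes. The 3 tested genes of choroid plexus and ependyma were 2 higher and 1 lower (median 0.18), and that median ran from -0.50 without het786 to 1.07 without wtBT13. Cspg4 stands on both the precursor and the mural list. In the lysate the medians were -0.06 for precursors, -0.34 for microglia and -0.10 for mural cells. Summed over 11 genes, of which 7 were tested, mural markers in IP were 33.95 to 50.93 CPM in heterozygotes and 54 to 65.07 CPM in wild types. Microglial markers summed to 85.35 to 126.6 CPM against 122.9 to 165.8. No marker of these lists was at 0 in every IP library. The part of carried-over glial RNA in these differences was not tested.

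Of the 53 gene lists described, 3 had every heterozygote below every wild type by their median (GABA receptors, layer 5 projection neurons and oligodendrocyte precursors), and 0 had every heterozygote above. Under shuffled labels each list would lie apart in a given direction at a share of 0.0179. Proteasome subunits had 24 of 31 higher, with a median log2 of 0.05 that was 0.03 without het729 or hetBT13 and 0.10 without het786. Circadian clock genes had 12 of 16 higher, with a median of 0.09 that was 0.05 without het786, 0.15 without het729 and 0.16 without wt785. Neuropeptide genes had 18 of 21 lower, with a median of -0.17 that was -0.05 without het786, -0.10 without wtBT14 and -0.32 without het729. In that list Scg2, a granin of dense-core vesicles, was at 127, 120.4 and 115 CPM against 127 to 164, with het729 and wt736 nearly level.

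A single animal made 2 of the largest list changes. The 4 tested blood cell genes had a median log2 change of 2.01, which was -0.68 without het729, and the 12 tested genes on mitochondrial DNA had 1.13, which was -0.50 without het729. Drd1, the dopamine D1 receptor gene, was at 46.1, 17.1 and 25.7 CPM in het729, het786 and hetBT13 against 24.6 to 39.8, so the heterozygotes held both the highest and the lowest level, and its mean of 29.6 ± 14.9 CPM (SD, n = 3) matched the wild-type 29.6 ± 6.18 (n = 5). Ppp1r1b, which encodes the dopamine-regulated phosphoprotein DARPP-32, was at 431, 233 and 244 CPM against 208 to 255, so that het729 alone lay above the wild types. Striatal projection neuron markers, which include both, summed to 1514 CPM in het729 and 932.4 to 1323 CPM in the other 7 libraries. Their median log2 change was -0.04, with -0.38 without het729 and 0.15 without het786, and the part of carried-over striatal tissue was not tested.

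**Figure D3:**
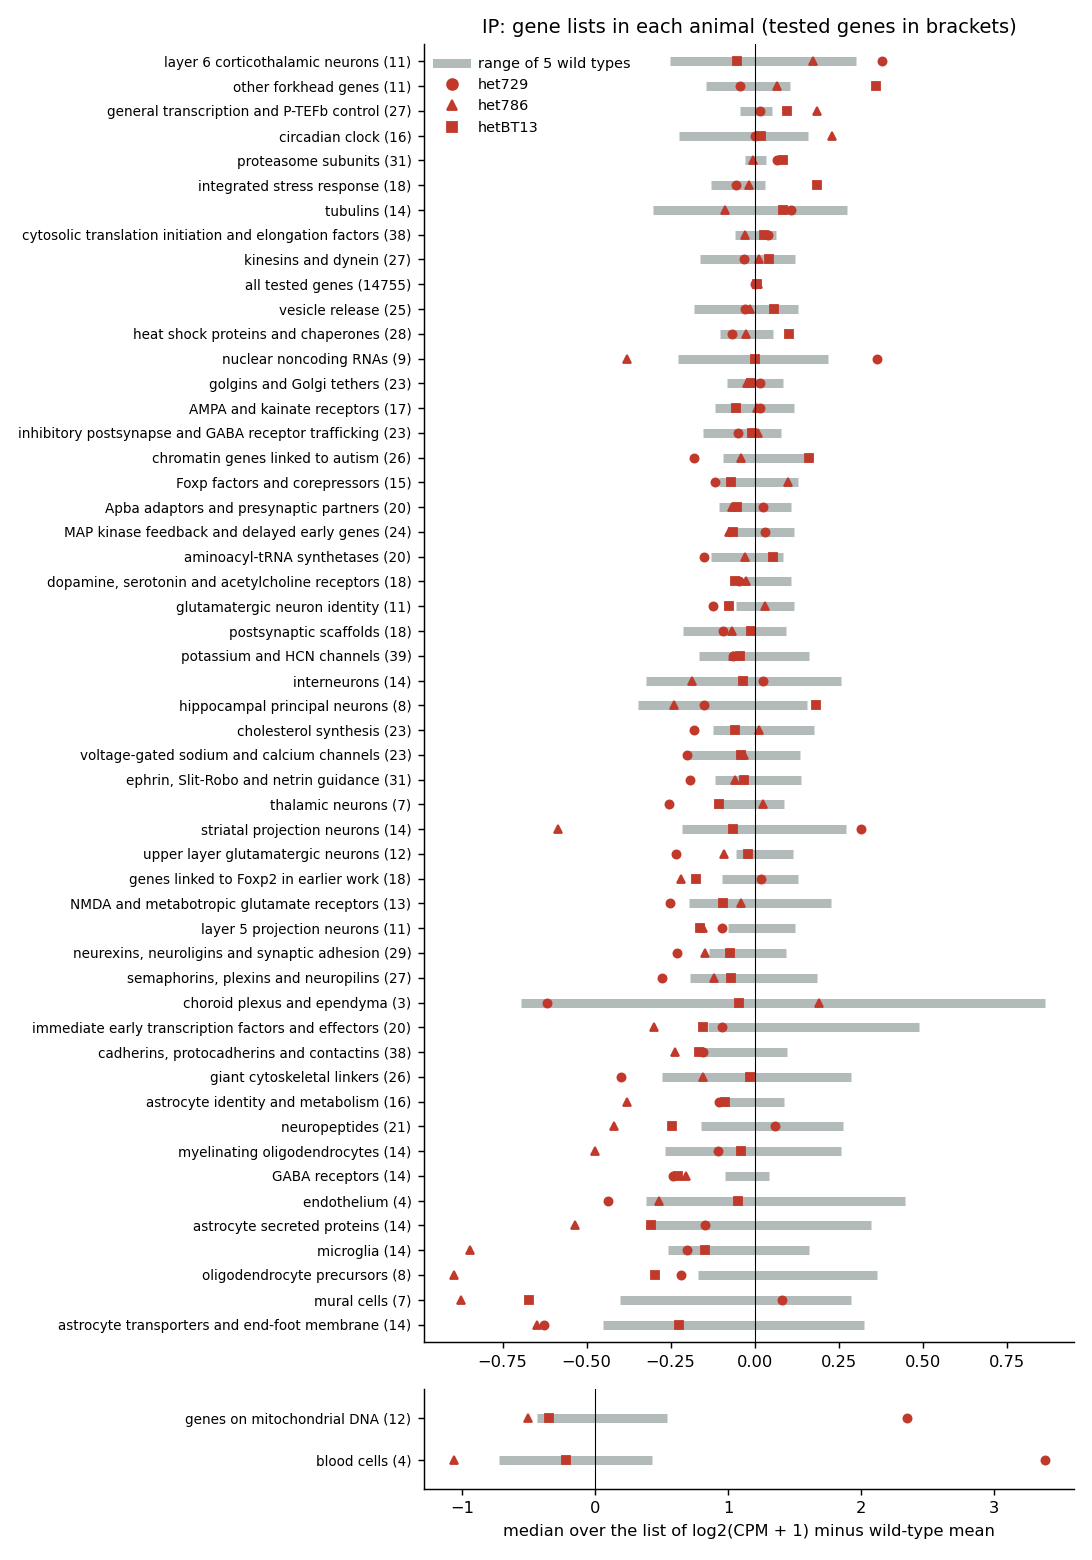
Median over each gene list of log2(CPM + 1) minus the wild-type mean, per animal, with the number of tested genes in brackets; grey bars span the 5 wild types and red symbols are the 3 heterozygotes. GABA receptor symbols lie together left of the grey bar, astrocyte and microglial symbols reach further left but meet it, and the lower panel, on its own scale, shows het729 far right for blood and mitochondrial genes.

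The change with transcript length was largest in 1 library. In the tested genes, sorted after their values were seen into 10 equal groups by the summed length of their exons, the median log2 change went from 0.09 in the shortest group (47 to 992 bases) to -0.06 in the longest (9700 to 123179 bases). Without het729 these medians were 0.01 and -0.03. The deviation of het729 from the wild-type mean ran from 0.219 to -0.135 between the same groups, that of het786 from 0.031 to -0.019 and that of hetBT13 from 0.006 to 0.002. Wild types ranged from -0.077 to 0.074 in the shortest group and from -0.051 to 0.053 in the longest. Of 1462 genes in the shortest group, every heterozygote lay below every wild type in 7 and above in 48. Among 1462 genes in the longest group these counts were 44 and 11. Over all 14755 genes they were 271 (1.84%) and 254 (1.72%). Genes for giant cytoskeletal linkers, such as spectrins and ankyrins, have a median of 20298 bases of exon against 4106 over all tested genes. They were 23 of 26 lower, with a median log2 change of -0.20, which was -0.10 without het729, -0.12 without wt785 and -0.32 without hetBT13. By animal their median was -0.398, -0.155 and -0.014 in het729, het786 and hetBT13. The wild types ran from -0.277 to 0.285, so het786 and hetBT13 lay inside their range. The median difference was 0.163 among BT animals and -0.426 among number-only ones. GABA receptor genes have a median of 6614 bases, within the range of group 8 (5943 to 7368 bases), whose median log2 change was -0.033. The GABA receptor median was -0.23 both with and without het729. Cadherin, semaphorin and synaptic adhesion lists have medians of 8850, 7880 and 8587 bases. The part of transcript length in the list changes was not tested.

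**Figure D4:**
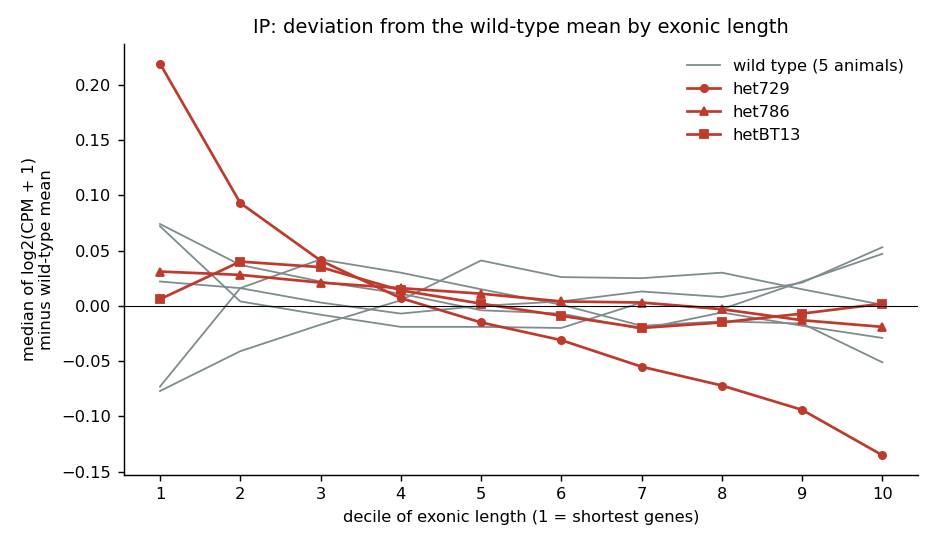
Median deviation from the wild-type mean, in log2(CPM + 1), of tested genes in 10 groups of exonic length, for 5 wild types (grey lines) and 3 heterozygotes (red). The line of het729 falls from 0.219 to -0.135, and those of het786 and hetBT13 stay between -0.02 and 0.04.

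The same animals' lysate allowed the ribosome-bound change to be set beside the change in total RNA. No gene passed in the lysate by edgeR (0 of 13870, 0%; 979, or 7.06%, had an unadjusted p below 0.05), and in a model of all 16 libraries with animal as a block the genotype effect differed between IP and lysate for 0 of 14797 genes (0%), with 454 (3.07%) at an unadjusted p below 0.05. Apba2 was at 84.6% of wild type in lysate and 67.8% in IP, and the difference of its log2 changes was -0.30 (SE 0.13, unadjusted p = 0.0309, edgeR adjusted p = 1). Mlc1 was at 69.6% in lysate and 43.7% in IP (difference -0.69, SE 0.17, unadjusted p = 0.000422, edgeR adjusted p = 1). Htra1 was at 64.6% in lysate, nearer to its 53.4% in IP. For Hexim2 the lysate stood at 90.8% and the IP at 141%, and for Itgb4 at 115% and 48.5%. Gabrd was at 94.6% in lysate and 77.7% in IP. Over all 14 tested GABA receptor genes the median log2 change was -0.157 in lysate and -0.23 in IP, and the median difference was -0.092.

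**Figure D5:**
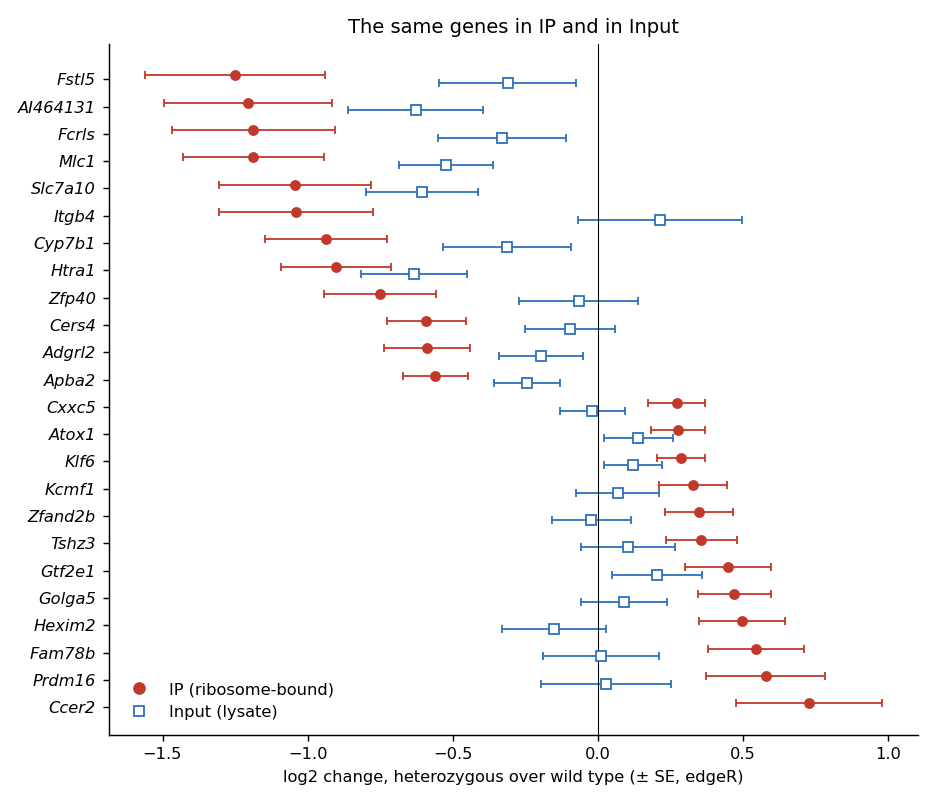
Log2 change with its SE from edgeR for the 24 genes of smallest p in IP (red circles) and for the same genes in lysate (blue squares); Ccer2 was too low in lysate to be tested. The lysate changes lie closer to 0 than the IP changes for every gene plotted in both, where the genes were chosen by their IP values.

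Mlc1, Trim36 and Kctd16, lower in IP, and Zfp334, 4632404H12Rik and Btbd19, higher in IP, had the smallest p for a difference between the fractions at a mean of at least 5 CPM. Trim36, which encodes a ubiquitin ligase of the tripartite motif family, was at 5.52, 3.38 and 3.28 CPM in the IP of het729, het786 and hetBT13 against 4.71 to 13.0 in wild-type IP, and at 17.3, 13.0 and 21.7 CPM against 11.2 to 16.4 in lysate. It was thus low in IP and not in lysate, with a difference of -1.56 (SE 0.33, edgeR adjusted p = 1). Kctd16, which encodes an auxiliary subunit of GABA-B receptors, was at 6.77, 9.75 and 12.8 CPM against 8.31 to 22.4 in IP and at 15.7, 18.3 and 19.2 against 8.46 to 15.1 in lysate, where every heterozygote was above every wild type. Zfp334, a zinc finger gene, was at 31.2, 35.3 and 35.2 CPM against 21.9 to 28.0 in IP and at 28.7, 27.3 and 29.8 against 33.8 to 51.8 in lysate. Btbd19 was at 137% of wild type in IP and 78.3% in lysate, and 4632404H12Rik at 119% and 66.1%.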

How the data were processed

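Unnormalised counts of reads for each Ensembl gene were deposited; the submitters' processing notes name HTSeq and mm10. For the aligner, annotation release, strand setting and HTSeq version, the sources used here give nothing. The table held 25317 gene identifiers, of which 24873 were given a name, and 0 columns were left unmapped. All 20 columns were matched to samples by their names, and no IP libraries were alike (at least 19443 genes differed between any 2).

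Counts of the 8 IP libraries (4061562 to 5754169 per library) were tested with edgeR 4.0.16 (R 4.3.3): filterByExpr at a count minimum of 10, TMM scaling, and robust quasi-likelihood F tests of genotype, 3 against 5, with Benjamini-Hochberg adjustment at 0.05. The Input fit was the same, and IP and Input were compared over all 16 libraries, blocked by animal, since the protocol takes both from 1 lysate. No pairing joins heterozygous to wild-type animals. DESeq2 1.42.0 and limma 3.58.1 (voom) were alternatives, with other scalings, filters and covariates and each library left out in turn. CPM used 1 TMM scaling of the 16 libraries, list values per animal a prior count of 1, and errors are SD. Single values were compared with exact two-sided permutation tests.

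Named genes were Foxp2, Foxp1, Foxp4, Apba2, Cntnap2, Drd1 and Ntsr1, the 12 of smallest p per direction with groups apart and a mean of at least 5 CPM (clone and pseudogene names left out), up to 2 per list with an unadjusted p below 0.05 at that level, genes called by DESeq2, and the 3 of smallest interaction p per direction. Other list members that are named were chosen after their values were seen. The 53 gene lists and all rules were chosen with earlier results of these data known, so no list is independent support. Promoters were matched by symbol to RefSeq windows on GRCm38.p6. The fits were tested on simulated data. The 4 Input libraries with titles ending in IX or IXX were not used.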

Additional observations from a re-analysis of the deposited data

Results flagged for a closer look

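Within the 5 wild-type IP libraries, 3 of the 79 named genes had 1 library far from the other 4, where chance alone marks about 1 group in 20. Foxp4 was at 24.59 CPM in wtBT14, with the nearest other wild type at 34.65. Syt4, which encodes a synaptotagmin of dense-core vesicles, was at 309.6 CPM in wt736, with the nearest at 216.1. Zfp334 was at 21.92 CPM in wtBT13, with the nearest at 26.64. The same wt736 library held the highest wild-type level of Foxp2.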

How the results depend on the processing

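The count of genes called for genotype in IP was 0 in 16 of the 17 alternatives and 3 with DESeq2, and it was 0 to 0 with each library left out in turn. The difference between IP and Input had 0 calls without the replicate block (308 genes at an unadjusted p below 0.05 against 454 with it) and 0 to 0 with each animal left out. With no low-count filter it had 11 calls. The genotype change was lower in IP than in Input for Ptpn4 and Trim36. It was higher in IP for Slc34a2, mt-Atp8, mt-Atp6, mt-Co3, mt-Nd4l, Gm24514, Rn7s6, Rn7s1 and Rn7s2. The median IP change of genes on mitochondrial DNA was 1.13 with het729 and -0.497 without it. The fit with no filter was not repeated without het729. Genes in the count of groups that do not overlap numbered 1339 of 14755 without het729, a count over fewer samples, against 525 (3.56%) with it. With fewer heterozygotes, shuffled labels also set the groups apart more often, so these counts cannot be compared. Lists with a median below 0 numbered 36 of 53, and 35 to 44 with 1 library left out; 30 of 53 kept their sign throughout. Among single genes, the log2 change of Drd1 (0.006) turned to -0.0782 with limma-voom and ran from -0.4665 (without het729) to 0.2815 (without het786) with 1 library left out, below 0 also without wt734 (-0.0565), wt736 (-0.0082) or wt785 (-0.0518). The log2 change of Ntsr1 (-0.038) ran from -0.1165 (without het786) to 0.0258 (without wt785), above 0 also without het729 (0.0233). The log2 change of 4632404H12Rik (0.234) ran from -0.0512 (without het786) to 0.3688 (without wt736), and the interaction log2 of Foxp2 (0.177) from -0.0825 (without wtBT13) to 0.4775 (without hetBT13), below 0 also without het729 (-0.0323). The cause was not tested. The totals of 4061562 to 5754169 counts leave genes at a few CPM with wide errors.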

Other observations

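Lipid genes of IP were read as a further list. Of 23 cholesterol synthesis genes and desaturases, 16 were lower (median log2 -0.13, or -0.03 without het729 and -0.05 without wtBT13). Scd1, a fatty acid desaturase gene, was at 9.75 to 25.0 CPM in heterozygotes against 21.4 to 37.6 in wild types, with hetBT13 inside the wild-type range. Its neighbour Scd2, the main desaturase gene of the brain, was at 262, 265 and 248 CPM against 236 to 359, with wtBT14 the lowest of all 8. Myelin genes had 10 of 14 lower (median -0.13, and 0.04 without het786, -0.06 without wtBT13, -0.21 without wt736, -0.25 without hetBT13 and -0.31 without het729). Mog, a myelin surface protein gene, was at 16.7, 19.3 and 26.2 CPM against 27.0 to 39.6.

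Of 18 tested genes of the integrated stress response, 10 were higher and 8 lower (median log2 0.02). Ddit3, the stress-induced transcription factor CHOP, was at 32.1, 41.5 and 35.4 CPM against 28.5 to 30.4 in wild types, and Ppp1r15b, a phosphatase subunit that restores translation, at 32.9, 34.7 and 27.6 against 34.7 to 42.8. Heat shock and chaperone genes had 15 of 28 lower with a median of -0.01. Chromatin genes linked to autism had 14 of 26 lower (median -0.02), among which Kmt5b, a histone methyltransferase gene, was at 40.2, 45.8 and 39.0 CPM against 31.5 to 37.8.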
